A study of Mus with 10 samples.

Results

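Type I interferon-stimulated genes (ISGs) were followed in mouse skin after PUVA, which is a psoralen, a light-activated DNA crosslinker, given together with UVA light. The 33 genes were taken from a list of members, and 31 of them were measured by a probe set with 1 gene symbol, out of 22180 genes on the array. Dtx3l and Ifi44 were not analysed here as genes of their own. A gene with more than 1 such probe set was represented by the one with the highest mean.

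Whole skin of female BALB/c mice aged 7 to 8 weeks was profiled on 10 Affymetrix gene arrays. By label, 4 arrays belong to a 7-day interval between PUVA and the next step (the 7-day group), 4 to a 3-day interval (the 3-day group), and 2 are controls. Psoralen was put on the skin and UVA followed at 0.25 J/cm2, 2 times a week over 2 weeks, and imiquimod, a TLR7 agonist that produces a psoriasis-like dermatitis, came after the interval in the study's protocol. The labels give the controls no interval. Whether imiquimod had been given before the skin was taken is not stated, nor what the controls received, so the comparisons are described by group name alone. It is also not stated whether each array is a separate animal, so the p-values cover the variation among these arrays, part of which may be technical.

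Type I interferons bind the receptor of IFNAR1 and IFNAR2, and the kinases JAK1 and TYK2 then phosphorylate STAT2. With IRF9 it acts in the complex ISGF3, which switches on genes that sense, tag or block viral nucleic acids and proteins. In skin, keratinocytes, macrophages and plasmacytoid dendritic cells all make or answer these interferons, and an interferon signature is a known feature of psoriatic and lupus skin.

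Values are the authors' deposited expression values, read as log2, and differences between groups are log2 differences, so that 1 unit is a doubling. Array medians lay between 5.83 and 5.86. Keratinocyte markers, 9 of which were measured, had list means of 11.3 to 11.6 on the 10 arrays, with the lowest mean on 3-day replicate 2. Below control lay 3 of 9 at 7 days and 8 of 9 at 3 days, where 9985 and 10955 of 22180 genes did. Their medians were 0.03 and -0.10, and 0 were lower at an unadjusted limma p under 0.05 in either group, against 2.68% and 4.07% of all genes. In growing-hair genes both controls lay above all PUVA arrays, with means over 15 genes of 8.52 on control replicate 2 and 6.46 on replicate 1. The PUVA arrays lay between 5.47 and 5.86. All 15 genes were below control in both PUVA groups. At an unadjusted limma p under 0.05, 12 were lower at 7 days and 13 at 3 days, against 2.68% and 4.07% of all genes. The part of this difference in the ISG values was not tested. In the ISGs the controls were close together, with means over the 31 genes of 7.05 and 7.04.

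In the 7-day group 30 of 31 ISGs lay above control, with a median log2 difference of 0.36. In the 3-day group all 31 measured genes did so, with a median of 0.55. Over all 22180 genes the medians were 0.015 and 0.0023, with 55% and 50.6% of genes above 0. Usp18, Irf7, Cmpk2, Rtp4 and Eif2ak2 were the 5 members with an unadjusted p under 0.05 in the 7-day group in the limma fit. No member passed an adjusted p of 0.05 in limma, where the smallest values were 0.748 for Usp18 in the 7-day group and 0.319 for Parp9 in the 3-day group. Of all genes, 0% and 0.00451% passed it in these comparisons. These 5 of 31 stand against 3.21% of all genes, and 18 of 31 were higher by the same threshold in the 3-day group, against 5.67%. In each, 0 members were lower, against 2.68% and 4.07% of all genes. Both comparisons use the same 2 controls.

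The fit takes 1 spread per gene over the 3 groups, and the spread of these genes was far from equal between them. With only the 7-day and control arrays in the fit, 20 of 31 members were higher in the 7-day group at an unadjusted p under 0.05, against 3.77% of all genes, and with only the 3-day and control arrays 12 of 31 were higher in the 3-day group, against 4.86%. No member passed an adjusted p of 0.05 in either, where the smallest limma values were 0.647 and 0.562. The arrays of the 7-day group all lay above both controls in 23 of 31 genes, against 8.56% of all genes, and those of the 3-day group in 21 of 31, against 9.52%.

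**Figure D1:**
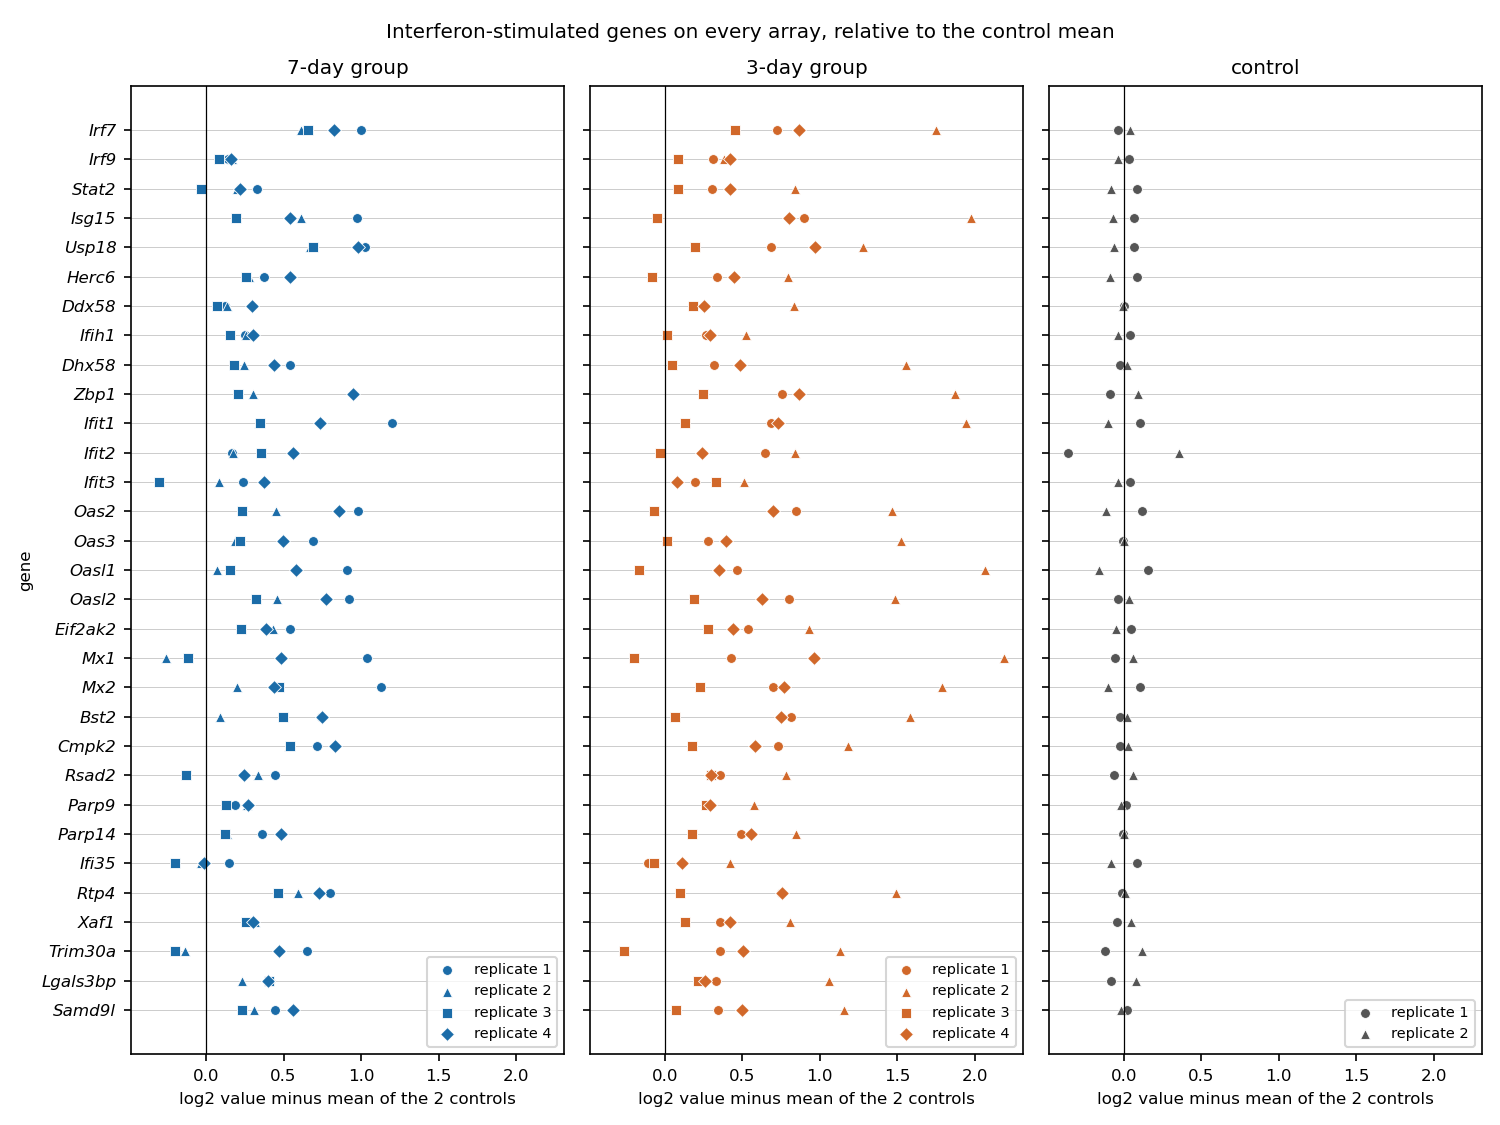
Log2 value of each of the 31 genes minus the mean of the 2 controls (x axis, log2 units), with 1 point per array and a panel for the 7-day group, the 3-day group and control. Replicate 2 of the 3-day group is the rightmost point of its panel in 30 of 31 genes, and replicate 3 is the leftmost in 28.

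In the 3-day group the same arrays stood at the ends of nearly every gene's range. Here replicate 2 was the highest array in 30 of 31 genes, against 25.7% of all genes, and replicate 3 was the lowest in 28 of 31, against 28.2%. The median of the 31 genes relative to the control mean was 0.43, 1.15, 0.09 and 0.49 on replicates 1 to 4 of the 3-day group. On 3-day replicate 3, 21 of 31 genes were above both controls, against 35.4% of all genes, while 7 lay between them and 3 were below both. On 3-day replicate 2 all 31 measured genes lay above both controls, against 35.1% of all genes.

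In the 7-day group the median relative to the control mean was 0.54, 0.26, 0.22 and 0.48 on replicates 1 to 4. Replicate 1 was the highest array in 19 of 31 genes and replicate 4 in 10, against 28.4% and 21.3% of all genes. Replicate 3 was the lowest in 20 and replicate 2 in 10, against 23.3% and 26.1%. The 7-day arrays therefore formed a higher and a lower pair in most of these genes. Over all genes the medians of the 8 PUVA arrays relative to the control mean ran only from -0.01 to 0.02.

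The SD over the 4 arrays of a group had a median of 0.18 over the 31 genes in the 7-day group and of 0.46 in the 3-day group. Over all genes these medians were 0.12 and 0.13. In the controls the median SD of the ISGs was 0.07 (n = 2), against 0.09 over all genes. The SD was larger in the 3-day group than in the 7-day group in 29 of 31 genes, against 55.9% of all genes, and Rsad2 and Ifit3 were the 2 exceptions. Xaf1, an interferon-induced factor that antagonises the apoptosis inhibitor XIAP, had the smallest SD in the 7-day group, at 0.03, against 0.28 in the 3-day group.

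**Figure D2:**
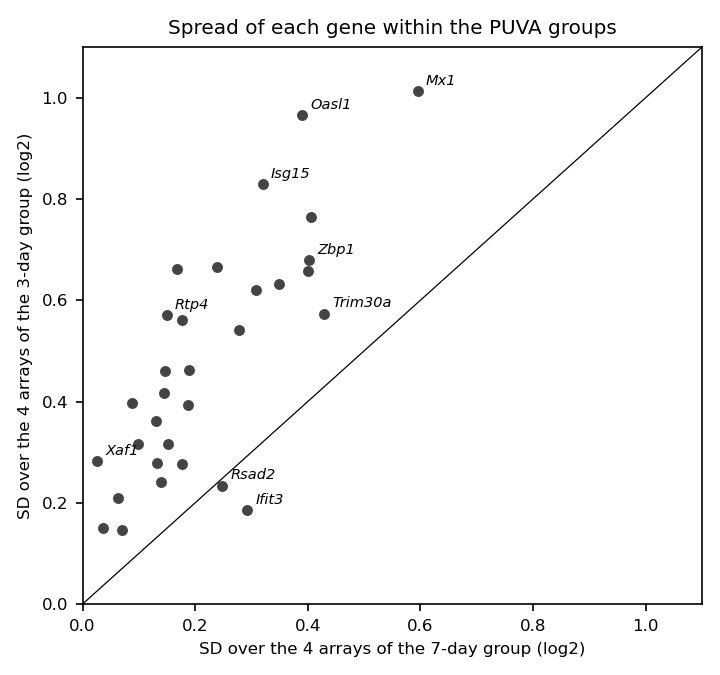
SD over the 4 arrays of the 7-day group (x axis) against the SD over the 4 arrays of the 3-day group (y axis), both in log2 units, with 1 point per gene and the line of equal SD. In all, 29 of 31 points lie above the line, and Mx1 has the largest SD in both groups.

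Among the transcription regulators, Irf7, which amplifies interferon gene expression and is itself interferon-induced, differed most from control. Its values were 8.22, 7.83, 7.88 and 8.05 in the 7-day group, against 7.18 and 7.26 in control. In the 3-day group they were 7.94, 8.97, 7.67 and 8.08. All 8 PUVA arrays thus lay above both controls, with log2 differences from control of 0.78 ± 0.28 (SE) at 7 days and 0.95 ± 0.28 at 3 days, which are ratios of 1.71 and 1.93. The adjusted limma p was 0.783 and 0.352.

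Irf9, the DNA-binding subunit of ISGF3, had values of 8.66, 8.69, 8.61 and 8.68 in the 7-day group, 8.83, 8.90, 8.61 and 8.95 in the 3-day group, and 8.56 and 8.49 in control. The differences were small, at 0.14 ± 0.10 and 0.30 ± 0.10 (SE), although no PUVA array overlapped the controls. Stat2, its partner in ISGF3, had 8.84, 8.71, 8.48 and 8.73 in the 7-day group, 8.82, 9.35, 8.60 and 8.93 in the 3-day group, and 8.60 and 8.43 in control. Both PUVA groups overlapped the controls in Stat2, at differences of 0.18 ± 0.18 and 0.41 ± 0.18.

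The ISG15 system tags proteins with the ubiquitin-like ISG15, with Herc6 as the main ligase in mice and Usp18 as the protease that removes the tag and damps the receptor. Usp18 had values of 8.57, 8.22, 8.23 and 8.53 in the 7-day group, against 7.61 and 7.48 in control, and 8.23, 8.83, 7.74 and 8.51 in the 3-day group. It was the gene with the largest difference of the 31 in the 7-day group, at 0.84 ± 0.24, with 0.78 ± 0.24 in the 3-day group, and the 8 PUVA arrays all lay above both controls.

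Isg15 itself had 5.89, 5.54, 5.11 and 5.46 in the 7-day group, 5.82, 6.89, 4.87 and 5.72 in the 3-day group, and 4.99 and 4.85 in control. Herc6 had 8.40, 8.30, 8.28 and 8.57 in the 7-day group, 8.36, 8.82, 7.94 and 8.47 in the 3-day group, and 8.11 and 7.94 in control. In both genes the 7-day arrays lay above both controls, while replicate 3 of the 3-day group lay among them. The differences of Isg15 from control were 0.58 ± 0.42 and 0.91 ± 0.42 in the 7-day and 3-day groups, and those of Herc6 were 0.36 ± 0.19 and 0.37 ± 0.19.

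Of the 4 nucleic acid sensors, Zbp1, which senses Z-form nucleic acids and can start necroptosis, differed most. It had 8.49, 7.84, 7.74 and 8.48 in the 7-day group, 8.29, 9.41, 7.78 and 8.40 in the 3-day group, and 7.45 and 7.63 in control, so that no PUVA array overlapped the controls. Ifih1, which encodes the long double-stranded RNA sensor MDA5, had 9.13, 9.14, 9.03 and 9.18 in the 7-day group, 9.14, 9.40, 8.89 and 9.17 in the 3-day group, and 8.92 and 8.84 in control. Its differences were 0.24 ± 0.12 at 7 days and 0.27 ± 0.12 at 3 days, against 0.60 ± 0.37 and 0.93 ± 0.37 for Zbp1. Ddx58, the RIG-I gene, had 0.16 ± 0.17 and 0.36 ± 0.17, and Dhx58, which encodes the regulator LGP2, had 0.35 ± 0.32 and 0.60 ± 0.32, with the PUVA arrays of both genes all above the controls.

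The IFIT proteins bind viral RNA ends and block translation. Ifit1 had values of 7.73, 6.88, 6.88 and 7.27 in the 7-day group, 7.22, 8.48, 6.67 and 7.26 in the 3-day group, and 6.64 and 6.43 in control. Its differences of 0.66 ± 0.41 and 0.87 ± 0.41 came without overlap with the controls. Ifit2 had 5.87, 5.88, 6.06 and 6.27 in the 7-day group, 6.35, 6.54, 5.67 and 5.94 in the 3-day group, and 5.35 and 6.06 in control. Here the controls lay 0.72 apart, the widest gap between controls of the 31 genes, and both PUVA groups overlapped them, at differences of 0.31 ± 0.25 and 0.42 ± 0.25. Ifit3 had smaller differences, of 0.10 ± 0.17 and 0.28 ± 0.17. Its near-identical copy Ifit3b, named after its values were seen, had -0.47 ± 0.28 and 0.16 ± 0.28, and the probes may not separate the 2 genes.

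The oligoadenylate synthetases make a second messenger that activates RNase L, and Eif2ak2 encodes PKR, the kinase that halts translation on double-stranded RNA. Eif2ak2 had values of 7.90, 7.79, 7.58 and 7.74 in the 7-day group, 7.89, 8.28, 7.63 and 7.80 in the 3-day group, and 7.40 and 7.30 in control. The differences of 0.40 ± 0.16 and 0.55 ± 0.16 were moderate, and the 8 PUVA arrays all lay above both controls. Oasl2 had 8.43, 7.97, 7.83 and 8.28 in the 7-day group, 8.31, 9.0, 7.70 and 8.14 in the 3-day group, and 7.47 and 7.55 in control, again without overlap. Oas2 had 8.77, 8.24, 8.02 and 8.65 in the 7-day group, 8.64, 9.25, 7.72 and 8.49 in the 3-day group, and 7.91 and 7.68 in control, where 3-day replicate 3 lay between the controls. The differences of Oasl2 were 0.62 ± 0.29 and 0.77 ± 0.29, and those of Oas2 were 0.63 ± 0.34 and 0.73 ± 0.34. Oas3 (0.40 ± 0.33 and 0.55 ± 0.33) and Oasl1 (0.43 ± 0.49 and 0.68 ± 0.49) had wide errors. Oasl1 spanned 2.23 log2 units within the 3-day group.

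Mx1 and Mx2 encode dynamin-like antiviral GTPases, and RefSeq lists both as transcribed pseudogenes in the C57BL/6J reference. Most inbred laboratory strains carry a defective Mx1. The RNA of Mx1 had the largest SD of the 31 genes in both PUVA groups, with values of 5.44, 4.14, 4.28 and 4.88 in the 7-day group, 4.82, 6.58, 4.20 and 5.36 in the 3-day group, and 4.34 and 4.46 in control. Its lowest PUVA values thus lay below both controls and close to the lower quartiles of the arrays, at 4.17 to 4.23, and its differences of 0.29 ± 0.55 and 0.84 ± 0.55 were within 2 standard errors. Mx2 had 6.43, 5.50, 5.77 and 5.74 in the 7-day group, 6.0, 7.09, 5.53 and 6.07 in the 3-day group, and 5.40 and 5.20 in control, with no overlap. Bst2, the gene of tetherin, which holds budding virus at the cell surface, had 6.82, 6.17, 6.58 and 6.83 in the 7-day group, 6.90, 7.67, 6.15 and 6.83 in the 3-day group, and 6.06 and 6.10 in control. The PUVA arrays of Bst2 all lay above the controls, although the lowest of each group did so by less than 0.1. The differences of Mx2 were 0.56 ± 0.36 and 0.87 ± 0.36, and those of Bst2 were 0.52 ± 0.33 and 0.80 ± 0.33.

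Cmpk2, a mitochondrial nucleotide kinase, and Rsad2, which encodes viperin, a radical SAM enzyme that makes a chain-terminating nucleotide, are neighbours in the genome. Cmpk2 had values of 7.30, 7.11, 7.12 and 7.41 in the 7-day group, 7.31, 7.76, 6.75 and 7.16 in the 3-day group, and 6.55 and 6.61 in control. Rsad2 had 5.88, 5.77, 5.31 and 5.68 in the 7-day group, 5.79, 6.22, 5.74 and 5.73 in the 3-day group, and 5.37 and 5.50 in control. The 8 PUVA arrays of Cmpk2 all lay above both controls, at 0.66 ± 0.21 and 0.67 ± 0.21. In Rsad2 this held for the 3-day group (0.43 ± 0.17), whereas the 7-day group (0.22 ± 0.17) overlapped the controls through its replicate 3.

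Parp9 and Parp14 encode ADP-ribosyltransferases of the interferon response and flank Dtx3l, the ubiquitin ligase partner of Parp9. Parp9 had values of 8.13, 8.21, 8.07 and 8.22 in the 7-day group, 8.24, 8.52, 8.21 and 8.23 in the 3-day group, and 7.96 and 7.93 in control. Parp14 had 8.86, 8.63, 8.62 and 8.98 in the 7-day group, 8.99, 9.35, 8.67 and 9.05 in the 3-day group, and 8.50 and 8.50 in control. Both genes had tight controls and no overlap with either PUVA group. The differences of Parp9 were small, at 0.21 ± 0.10 and 0.36 ± 0.10, and those of Parp14 were 0.27 ± 0.17 and 0.52 ± 0.17.

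Of the other ISGs, Rtp4, a chaperone of membrane receptors that also acts as an interferon-induced antiviral factor, had 8.48, 8.27, 8.14 and 8.41 in the 7-day group, 8.43, 9.17, 7.78 and 8.44 in the 3-day group, and 7.67 and 7.69 in control. Xaf1 had 7.80, 7.81, 7.75 and 7.80 in the 7-day group, 7.85, 8.31, 7.63 and 7.92 in the 3-day group, and 7.45 and 7.54 in control. No PUVA array overlapped the controls in either gene, with differences of 0.64 ± 0.28 and 0.77 ± 0.28 for Rtp4 and of 0.29 ± 0.15 and 0.43 ± 0.15 for Xaf1. Lgals3bp, a secreted galectin-3 ligand (0.36 ± 0.20 and 0.47 ± 0.20), and Samd9l, a restriction factor of poxviruses (0.39 ± 0.23 and 0.52 ± 0.23), also had no overlap with control. Trim30a, which restrains TLR signalling, had 0.20 ± 0.34 and 0.43 ± 0.34, and Ifi35 had -0.03 ± 0.15 and 0.09 ± 0.15, and the arrays of both overlapped the controls. Ifi35 was the 1 member below control in the 7-day group, and with the mean of its 2 probe sets that difference was 0.0025.

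**Figure D3:**
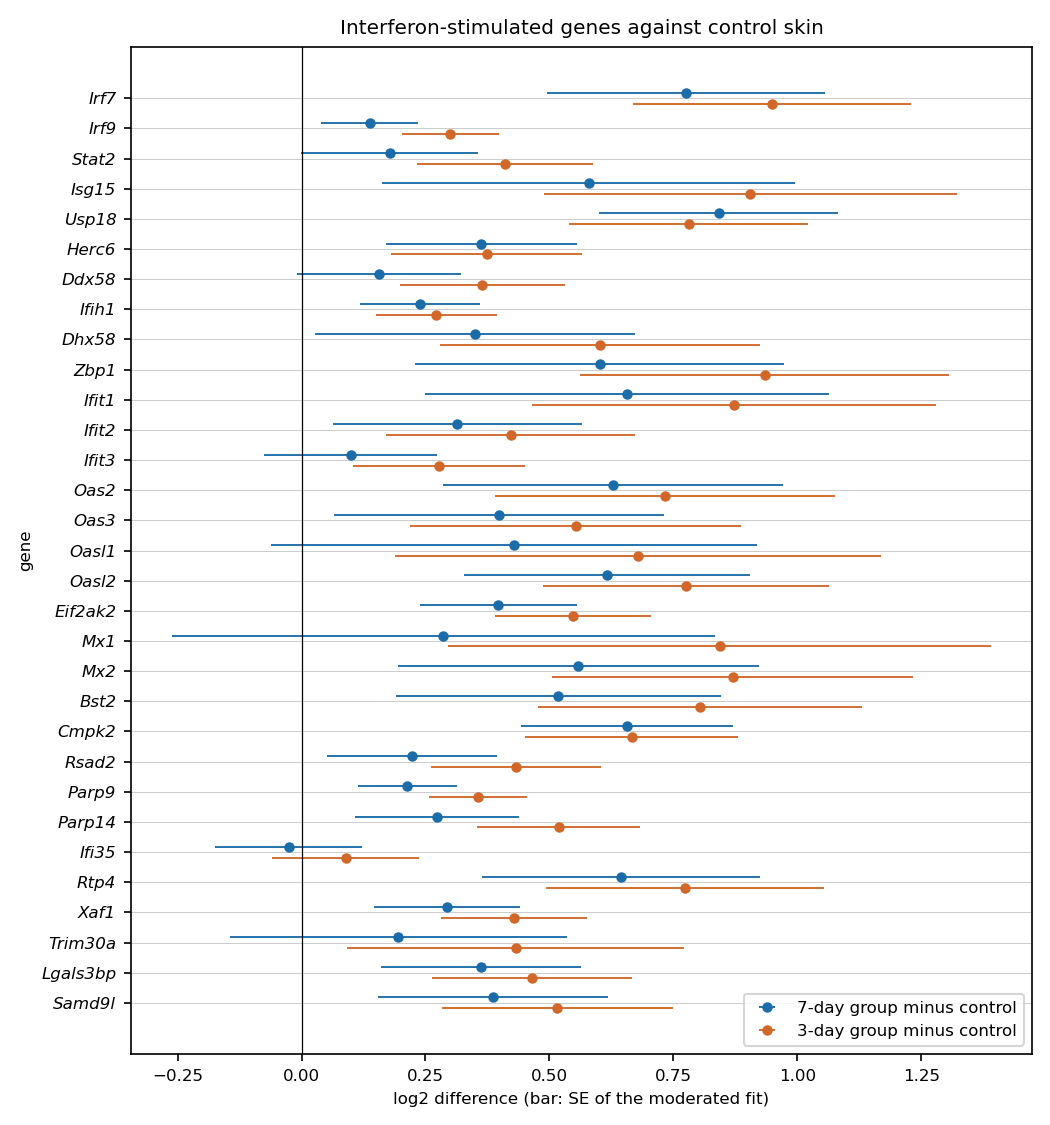
Log2 difference from control (x axis) of each of the 31 genes in the 7-day group and the 3-day group, where bars are SEs of the moderated fit. The 3-day difference is the larger in 30 of 31 genes, the exception being Usp18, and the SE bars of the 2 groups overlap.

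Between the PUVA groups, 30 of 31 genes were lower in the 7-day than in the 3-day group, with a median log2 difference of -0.16, where 46.8% of all genes lay below 0. No member passed an adjusted p of 0.05, with a smallest value of 0.54 in limma for Irf9, where 0.00902% of all genes passed. At an unadjusted p under 0.05 there were 0 members lower, against 4.43% of all genes, and 0 higher, against 5.33%. The 2 groups overlapped in all 31 genes, where 2.95% of all genes lay apart upward and 2.28% downward. The direction rested on 3-day replicate 2: without that array the median was 0.03, with 16 of 31 genes above 0. Without 3-day replicate 3 the median was -0.33, with 5 members lower at an unadjusted p under 0.05, against 5.54% of all genes.

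The medians against control stayed above 0 without any 1 array, whereas the counts of calls depended strongly on single arrays. Without 3-day replicate 2 the 3-day median was 0.30, with 30 of 31 genes above 0 and 13 higher at an unadjusted p under 0.05, against 4.7% of all genes. Without the same array, 18 members were higher in the 7-day group at an unadjusted p under 0.05, against 3.56% of all genes, at an unaltered median of 0.36. Without 3-day replicate 3 the counts were 10 at 7 days and 28 at 3 days, against 3.4% and 6.68% of all genes. Without control replicate 1 they were 1 and 6, against 4.52% and 4.08%, so that the share of members higher at 7 days was then no larger than that of all genes. Without control replicate 2 they were 3 and 7, against 1.52% and 3.74%. The medians were 0.40 and 0.55 without control replicate 1 and 0.37 and 0.55 without control replicate 2.

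**Figure D4:**
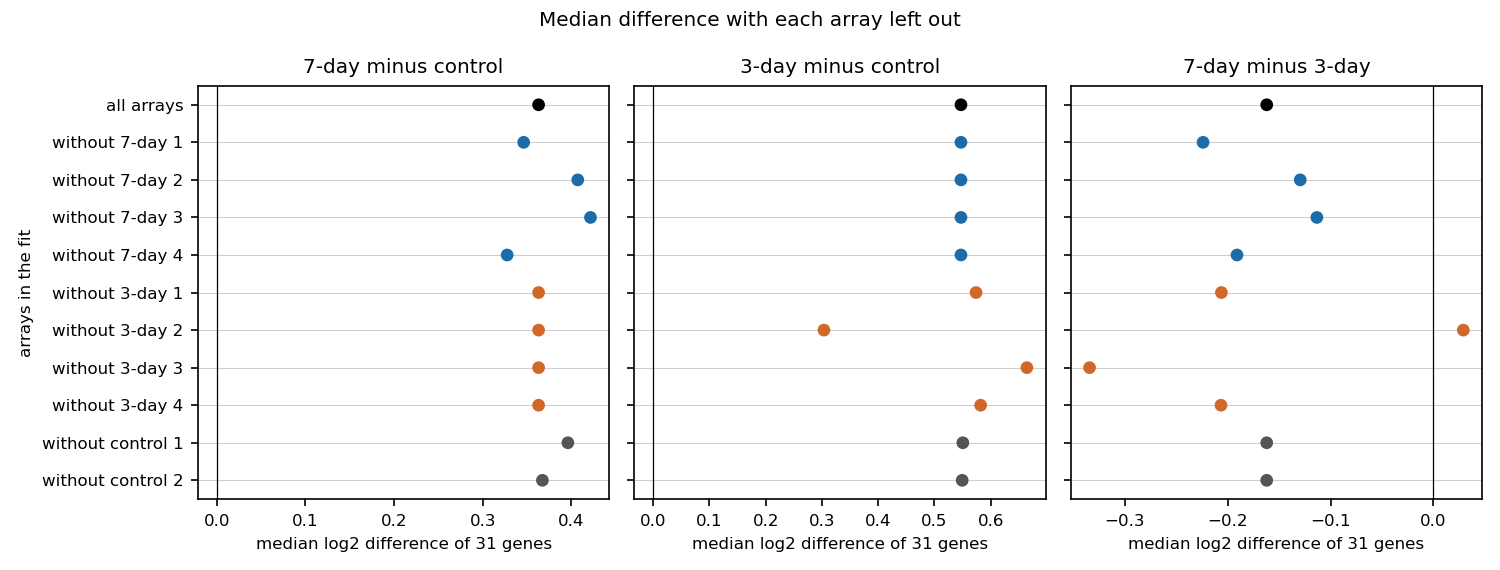
Median log2 difference of the 31 genes (x axis) with all arrays and with each array left out (rows), for the 7-day group minus control, the 3-day group minus control and the 7-day minus the 3-day group. The first 2 stay above 0 in all 11 fits, and the third turns to 0.03 without replicate 2 of the 3-day group.

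The lists of pathway genes had smaller medians than the ISGs. In all genes, 3.21% were higher at 7 days and 5.67% at 3 days at an unadjusted p under 0.05. The counts of genes higher in the following lists stand against these shares. With 1 PUVA array left out the shares ran from 2.63% to 3.56% at 7 days and from 4.7% to 6.68% at 3 days. Of 12 measured interferon genes, 10 lay above control at 7 days and 11 at 3 days, against 55% and 50.6% of all genes. The 12 genes had medians of 0.09 and 0.11, and 1 was higher at an unadjusted p under 0.05 in the 7-day group and 0 in the 3-day group. That gene was Ifna1, at 0.30 ± 0.12 at 7 days and 0.11 ± 0.12 at 3 days, whose arrays overlapped the controls. Ifnb1, the interferon-beta gene, had values of 2.77 to 3.08 in the 7-day group, 2.69 to 3.40 in the 3-day group, and 2.95 and 2.75 in control. All 10 of its values were below the lower quartile of the array values. The group means of Ifnk, Ifne, Ifna2, Ifna11 and Ifna13 were also below the lower quartiles of the arrays, at 4.17 to 4.23.

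Ifnar2 had 9.22, 9.10, 9.30 and 9.31 in the 7-day group, 9.41, 9.70, 9.52 and 9.38 in the 3-day group, and 9.08 and 9.10 in control. The 3-day arrays of Ifnar2 lay above all others, by 0.41 ± 0.10 over control, and the 7-day minus 3-day log2 difference was -0.27 ± 0.08. In limma these had an adjusted p of 0.298 and 0.377. Ifnar1 had -0.12 ± 0.09 and 0.08 ± 0.09 against control. Its 7-day minus 3-day log2 difference was -0.20 ± 0.07, at an adjusted limma p of 0.446, and each 7-day array lay below each 3-day array. Of the 9 measured receptor and kinase genes, 2 lay apart downward between the PUVA groups, against 2.28% of all genes. Ifnlr1, a receptor chain of type III interferons, had -0.07 ± 0.12 and -0.28 ± 0.12 against control. The 9 measured receptor and kinase genes had medians of 0.05 and 0.07. At an unadjusted p under 0.05, 0 in the 7-day group and 1 in the 3-day group were higher, against 3.21% and 5.67% of all genes. Lower were 0 and 1, against 2.68% and 4.07%.

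The 16 measured genes that lead to interferon production had medians of 0.05 and 0.21, with 12 and 14 above 0. Their means were 7.77 to 7.99 in the 7-day group, 7.85 to 8.17 in the 3-day group, and 7.77 and 7.82 in control. As for the ISGs, 3-day replicate 2 was the highest of its group and replicate 3 the lowest. The 3-day arrays all lay above both controls in 5 genes and all below in 1, where 9.52% of all genes lay above and 1749 of 22180 below. Against 3.21% and 5.67% of all genes, 0 in the 7-day group and 2 in the 3-day group were higher at an unadjusted p under 0.05. These were Sting1, the adaptor of cytosolic DNA sensing, at 0.05 ± 0.25 and 0.60 ± 0.25 in the 7-day and 3-day groups, and Unc93b1, the trafficking factor of endosomal TLRs, at 0.16 ± 0.22 and 0.53 ± 0.22. Tlr7, the receptor that imiquimod engages, had 6.70, 6.78, 6.64 and 7.42 in the 7-day group, 7.24, 7.09, 6.66 and 7.01 in the 3-day group, and 6.50 and 6.73 in control. Both PUVA groups overlapped the controls in Tlr7, at 0.27 ± 0.22 and 0.39 ± 0.22. Among 8 genes that restrain the pathway, with medians of -0.0048 and 0.17, 1 at 7 days and 2 at 3 days were higher at that threshold. Irf2, a repressor that competes for interferon response elements, had 0.37 ± 0.14 and 0.45 ± 0.14, and Socs3, a feedback inhibitor of JAK signalling, had -0.06 ± 0.17 and 0.40 ± 0.17.

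Other ISGs were written down as a separate list, with earlier results of these data known, and 41 of them were measured. They lay above control in 37 genes in the 7-day group and in all 41 measured genes in the 3-day group, with medians of 0.15 and 0.33. At an unadjusted p under 0.05, 4 and 15 were higher, against 3.21% and 5.67% of all genes. With 1 array left out the 7-day count ran from 2, without control replicate 2 or 7-day replicate 4, to 7, without 3-day replicate 2. The 3-day count ran from 9, without control replicate 2, to 24, without 3-day replicate 3. Apol9b had 5.51, 5.24, 5.13 and 5.22 in the 7-day group, 5.54, 5.37, 5.01 and 5.31 in the 3-day group, and 4.71 and 4.49 in control. Its differences were similar, at 0.67 ± 0.15 and 0.71 ± 0.15, without overlap of the controls. In limma these had an adjusted p of 0.71 and 0.204. Trim25, the ligase that activates RIG-I, had 0.27 ± 0.08 and 0.35 ± 0.08, and Lgals9, which encodes galectin-9, had 0.35 ± 0.15 and 0.60 ± 0.15. Uba7, the activating enzyme of ISG15, had 0.03 ± 0.13 and 0.39 ± 0.13, and Ifitm3, which blocks viral entry, had 0.23 ± 0.14 and 0.46 ± 0.14.

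The 16 measured genes of the interferon-gamma set had medians of 0.09 at 7 days and 0.38 at 3 days, where 9 and 14 genes lay above 0. At an unadjusted p under 0.05, 1 and 8 were higher, against 3.21% and 5.67% of all genes. Without either control the 3-day count was 2, without 3-day replicate 4 it was 5, and the 7-day count was 0 to 2 with 1 array left out. Their order of arrays differed in part from that of the ISGs. The set's means were 6.73, 7.03, 6.71 and 7.29 on replicates 1 to 4 of the 7-day group, 7.18, 7.28, 7.15 and 7.37 in the 3-day group, and 6.87 and 6.88 in control. Replicate 1 of the 7-day group, the highest 7-day array in 19 of the 31 ISGs, was thus below both controls in this set. In both PUVA groups, replicate 3 had the lowest mean of its group in this set and in the ISGs. The mean of 3-day replicate 3 lay above both controls in this set. It did so too in the ISGs, at 7.14 against 7.05 and 7.04. The SD of the set's means was 0.28 at 7 days and 0.10 at 3 days, against 0.19 and 0.46 for the means of the ISGs.

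Cxcl10, a chemokine that draws T cells, had values of 5.33, 5.99, 5.90 and 6.34 in the 7-day group, 6.43, 6.85, 6.60 and 7.16 in the 3-day group, and 6.02 and 6.14 in control. In Cxcl10, Cxcl11 and Gbp5 each 7-day array lay below each 3-day array, with log2 differences of -0.87 ± 0.21, -0.64 ± 0.16 and -0.31 ± 0.09 in that order. In limma these had an adjusted p of 0.249, 0.278 and 0.359. Cxcl9 had -1.21 ± 0.34 and Irgm1, an immunity-related GTPase, -0.31 ± 0.15, and the PUVA groups overlapped in both. None of the 31 ISGs separated the PUVA groups, where 2.28% of all genes lay apart downward and 2.95% upward. Of the 16 genes of the interferon-gamma set 3 lay apart downward, and of the 41 other ISGs 2 did. Whether the 2 lists differed in their change between the gaps was not tested.

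Macrophage markers moved in part with the ISGs from array to array. The means of the 12 markers were 9.36, 9.0, 9.06 and 9.47 on replicates 1 to 4 of the 7-day group, 9.46, 10.04, 9.12 and 9.47 in the 3-day group, and 8.95 and 9.12 in control. The highest 3-day array and the higher pair of 7-day arrays were the same as for the ISGs. Within the 7-day group the order differed, as replicate 4 had the highest macrophage mean and replicate 2 the lowest. The macrophage means of 7-day replicates 2 and 3 lay between the controls. At an unadjusted p under 0.05, 0 of 12 in the 7-day and 5 of 12 in the 3-day group were higher, against 3.21% and 5.67% of all genes. The 3-day count was 0 without control replicate 1, 3 without control replicate 2 or 3-day replicate 2, and 8 without 3-day replicate 3. The 12 markers had medians of 0.21 and 0.45, and 11 lay above control in each group. Mertk was the 1 below, at -0.11 ± 0.19 and -0.12 ± 0.19, and Lyz2 had 0.20 ± 0.20 and 0.15 ± 0.20. C1qa, of complement C1q, had differences of 0.29 ± 0.25 and 0.75 ± 0.25. Mrc1, the mannose receptor gene, had 0.20 ± 0.24 and 0.60 ± 0.24, and Fcgr1, a high-affinity IgG receptor, had 0.44 ± 0.60 and 1.18 ± 0.60. In bulk skin, more cells of a type and more RNA per cell cannot be told apart, and the part of macrophages in the ISG values was not tested.

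Of the other cell type lists, the fibroblast markers had as many genes higher in the 3-day group as the macrophage markers. Counts of genes higher in these lists stand against 3.21% of all genes at 7 days and 5.67% at 3 days. The 11 measured markers of plasmacytoid dendritic cells had means of 6.61 to 6.75 in the 7-day group, 6.54 to 6.72 in the 3-day group, and 6.54 and 6.66 in control, with 0 genes higher at an unadjusted p under 0.05 in either group. The 10 T cell markers had means of 6.15 to 6.49 in the 7-day group, 6.20 to 6.43 in the 3-day group, and 6.35 and 6.18 in control. Neutrophil markers had 4.74 to 4.83, 4.85 to 4.91, and 4.75 and 4.72 in the same order of groups. Fibroblast markers had 10.49 to 10.91 in the 7-day group, 10.90 to 11.33 in the 3-day group, and 10.51 and 10.93 in control, with 3-day replicate 2 the highest array and 0 of 10 in the 7-day and 5 of 10 in the 3-day group higher at an unadjusted p under 0.05. The 3-day count was 0 without control replicate 1, 2 without 3-day replicate 4 and 3 without 3-day replicate 3. Endothelial markers had means of 8.18 to 8.27 in the 7-day group, 8.24 to 8.32 in the 3-day group, and 8.13 and 8.0 in control, so that the PUVA arrays all lay above both controls. Their 8 genes were all above control in both groups, with medians of 0.09 and 0.17, and 1 and 2 were higher at an unadjusted p under 0.05. Langerhans and dendritic cell markers had means of 6.64 to 6.87 in the 7-day group, 6.65 to 7.05 in the 3-day group, and 6.73 and 6.70 in control, with 0 of 9 and 2 of 9 genes higher. The part of these cell types in the ISG values was not tested.

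**Figure D5:**
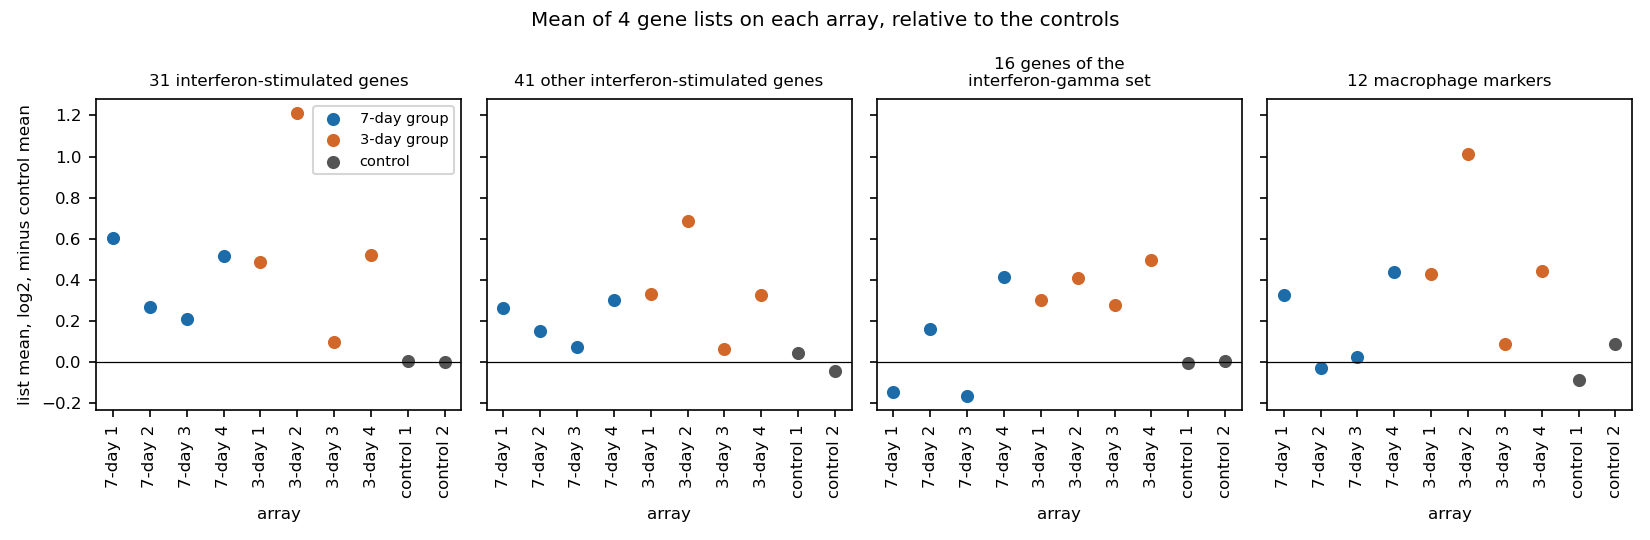
Mean of 4 gene lists on each array (log2 units, minus the control mean), with arrays of the 7-day group, the 3-day group and control from left to right. Replicate 2 of the 3-day group is the highest array for the ISGs, the other ISGs and the macrophage markers, and replicate 4 of that group is the highest for the interferon-gamma set.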

How the data were processed

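Per the labels' protocols, RNA came from a miRNeasy extraction including DNase treatment, and the Affymetrix WT PLUS kit made the labelled target. The deposited table holds log2 values made by the authors, 1 per probe set and array, for 41345 probe sets. The log base is an inference from their range. The authors' normalization is not given in the sources used here. Probe sets were named from GEO's platform annotation: 23521 had 1 symbol, 1814 several and 16010 none listed. No scan date or other batch is known here. Precision is limited by the number of arrays.

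Group means were fitted over all 10 arrays and 22180 genes in limma 3.58.1 under R 4.3.3 (two-sided tests from lmFit and eBayes, 7 residual and 3.514 prior degrees of freedom), with Benjamini-Hochberg adjustment over all genes of a comparison. No filter on dim signals was used. Scripts were tested on simulated data. The members, the lists and the rule for named genes were chosen with earlier results of these data known. By that rule, array values are given for the members with the smallest p against control overall and in each role group and for those with the largest SD, and up to 5 other genes a list are named. Replicate numbers are only names. A planned search of promoters was not run. Alternatives were a filter on dim genes, the mean of a gene's probe sets, quantile normalization, centring, trended and robust eBayes, array weights, only the groups compared, and leaving out each array.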

Additional observations from a re-analysis of the deposited data

Results flagged for a closer look

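In groups of 4 arrays, a lone highest or lowest array was flagged where its gap to the nearest array, divided by the range of the group, exceeded Dixon's critical value for 4 arrays. Of 64 such groups 5 were flagged, where chance flags about 1 in 20. In the 3-day group, replicate 2 was the lone highest array for Parp9 (8.52, with the next array at 8.24, gap over range 0.907), Ddx58 (8.84 and 8.26, 0.888), Rsad2 (6.22 and 5.79, 0.878) and Lgals3bp (10.88 and 10.15, 0.86). The Dixon ratio passed in these 4 of 31 genes, although that array was the highest in 30. In the 7-day group, replicate 2 was the lone lowest array for Lgals3bp (10.05, with the next at 10.22, 0.926).

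A probe set annotated to both Dtx3l and Parp9, which the comparisons did not use because it carries 2 symbols, had values of 7.72, 7.78, 7.82 and 7.91 in the 7-day group, 7.98, 8.08, 7.73 and 7.95 in the 3-day group, and 7.66 and 7.70 in control. Its 8 PUVA arrays lay above both controls, with log2 differences of 0.13 ± 0.11 and 0.25 ± 0.11 (SE).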

How the results depend on the processing

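No paired analysis was possible because the labels give no replicate numbers shared between groups. The median differences from control kept their sign under every alternative run, at 0.33 to 0.42 for the 7-day and 0.30 to 0.66 for the 3-day group, and no member passed an adjusted p of 0.05 in any. Members higher at an unadjusted p under 0.05 in the 7-day group numbered 5, against 3.21% of all genes. They numbered 8 with array weights (against 3.52%), 20 with only the groups compared (3.77%) and 3 to 18 with 1 PUVA array left out (2.63% to 3.56%). In the 3-day group they numbered 18, against 5.67% of all genes, and 6 to 28 with 1 array left out (3.74% to 6.68%). With only the groups compared they numbered 12 (against 4.86%). Between the PUVA groups the median of -0.16 ranged from -0.33 to 0.029 with 1 array left out, and was 0.029, with the sign turned, without 3-day replicate 2. Members lower there, a count added after the data were seen, numbered 0, against 4.43% of all genes. They numbered 1 with trended and robust eBayes (against 4.57%), 1 with array weights (5.43%) and 0 to 5 with 1 PUVA array left out (2.74% to 5.54%). Fits with a lone control borrow its spread from the PUVA groups. The 2 controls limit each comparison with control, and the labels do not settle the treatment of the controls.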
